A study of Mus musculus with 36 samples.

Results

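The 6 libraries described here, of 36 in the series, hold the response of PKP4-KO keratinocytes to calcium after 72 h. By their labels, they are 3 libraries of PKP4-KO cells kept for 72 h in high calcium medium (HCM) and 3 of the same cells kept for 72 h in low calcium medium (LCM). Keratinocytes are the epithelial cells of the epidermis, here taken from newborn pups. Pkp4 encodes plakophilin 4 (PKP4, also called p0071), an armadillo-repeat protein of cell-cell junctions. The Pkp4-/- mice carry a germline deletion of 1 exon of the gene in every cell on a C57BL/6J background, and the controls were Pkp4+/+ mice (WT). Both media contained calcium-depleted serum, hydrocortisone, insulin, EGF and cholera toxin. LCM held 50 µM CaCl2, and HCM was LCM with 1.2 mM CaCl2 added. Poly(A) RNA was sequenced and reads were counted per gene. PKP4-KO cells at 24 h, WT cells at 72 h and Rescue cells at 72 h served for comparison, each with 3 HCM and 3 LCM libraries. Rescue cells are PKP4-KO cells that carry human PKP4 fused to EGFP from a lentivirus and were selected with puromycin, so they also differ from PKP4-KO cells by infection and selection. No source used here ties a library to a pup or a dish. The p-values therefore measure the spread between these libraries, and the genotype cannot be told apart from the pups that gave the cells.

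In skin, calcium rises from the basal layer towards the surface, and keratinocytes in culture stay basal-like in low calcium. Raising calcium lets cadherins of neighbouring cells bind each other, so that adherens junctions, desmosomes and later tight junctions form. Cells then leave the cell cycle, switch from basal to suprabasal keratins, and make the proteins and lipids of the cornified envelope, the sealed shell of dead surface cells.

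The HCM libraries held 14299799 to 16137326 counts and the LCM libraries 16283183 to 21441437. Levels are given as CPM, the counts of a gene relative to the total of its library, after TMM scaling, which sets libraries level by the bulk of their genes. The TMM factors were 0.481 to 0.546 in HCM, 0.733 to 0.933 in LCM and 0.705 to 1.39 in the other 30 libraries, so the HCM libraries stood apart in composition. Ribosomal protein genes took 27.2 to 29.4% of the HCM counts and 16.9 to 21.9% of the LCM counts. Short genes were also higher in HCM, with a slope of log2 CPM per doubling of gene length, against the mean of all libraries, of -0.566 to -0.498 in HCM and -0.316 to -0.0991 in LCM. List counts are therefore also given with offsets for gene length, an alternative chosen after the data were seen, and without TMM factors, which shifts the median gene by -0.688 on the log2 scale. LCM replicate 2 stood apart from LCM replicates 1 and 3, at distances of 0.633 and 0.614 (root mean square log2 difference) against 0.371 between those, and its distance to the HCM libraries was 0.605 to 0.69. The part of gene length, composition or this library in the results was not tested. Pkp4 itself measured 7.27 ± 0.936 CPM (SD, n = 3) in HCM and 11.3 ± 2.59 CPM in LCM, which is 18.8% and 27.5% of the WT level in the same medium (10.9% and 21.1% without TMM factors), with no overlap and an exact permutation p, two-sided, of 0.1 in each comparison, the smallest that 3 against 3 allows. A count per gene includes exons outside the deletion, so it does not measure the deletion itself. The transgene sequence (GFP-PKP4) had 3 to 60 counts in these 6 libraries against 4505 to 15325 in the Rescue libraries at 72 h. Markers of other cell types were near 0 in sum for fibroblasts (12 genes, 0.381 to 2.73 CPM in HCM and 2.18 to 7.35 in LCM) and melanocytes (8 genes, 1.14 to 1.74 and 0.9 to 1.83). The sums of 15 immune markers (34.6 to 48.9 CPM in HCM, 18.3 to 33 in LCM) and 10 muscle and adipocyte markers (31.1 to 47 and 8.15 to 17.2) were higher in HCM, nearly all from Cd68, a lysosomal protein gene, and Fabp4, a fatty acid carrier. Of the immune markers 2 (Cd207 and Cd3g) had no read, and the others had reads. The 4 immune markers that were tested had a median log2 fold change, HCM minus LCM, of -2.48, with 1 called higher and none lower. Of the muscle and adipocyte markers 5 had no read, Adipoq and Plin1 among them. The 8 Merkel and neuronal markers summed to 278 to 303 CPM in HCM and 185 to 231 in LCM, mostly from Tubb3, a tubulin gene. Of these markers 1 (Atoh1) had no read. The 23 hair follicle genes in the table summed to 85.5 to 93.8 and 52.5 to 65.4 CPM, mostly from Krt84, Sox9 and Krt25, and 8 endothelial markers to 0.872 to 3.56 and 2.5 to 5. The part of these markers in the results was not tested.

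After 72 h in HCM, 4924 of 15114 tested genes (32.6%) differed from LCM at an adjusted p under 0.05 (edgeR quasi-likelihood test). Of these, 1947 were higher in HCM (12.9% of the tested genes) and 2977 were lower (19.7%), and 2193 changed by more than 1 on the log2 scale. The 3 HCM and 3 LCM libraries did not overlap for 6978 genes (46.2%). The share of higher genes among the calls, 39.5%, depended on the setting. It was 50.9% with DESeq2, which has its own size factors and test, and 46.2% with only the groups compared in the fit. With offsets for gene length it was 49.8% (29.6% of the tested genes called, 14.8% higher and 14.9% lower). Without TMM factors it was 8.17%. Without LCM replicate 2 there were 5433 calls (35.9%). Keratin genes led the protein-coding genes by count in both media. In LCM the most counted protein-coding genes were Krt14 (3.05% of counts), Krt5 (2.29%) and Krt6a (1.89%), and in HCM they were Krt6a (2.21%), Krt14 (1.95%) and Krt6b (1.79%). The epidermal lectin gene Lgals7 took 0.381% of counts in LCM and 1.33% in HCM, and the fatty acid carrier gene Fabp5 0.719% and 1.15%.

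**Figure D1:**
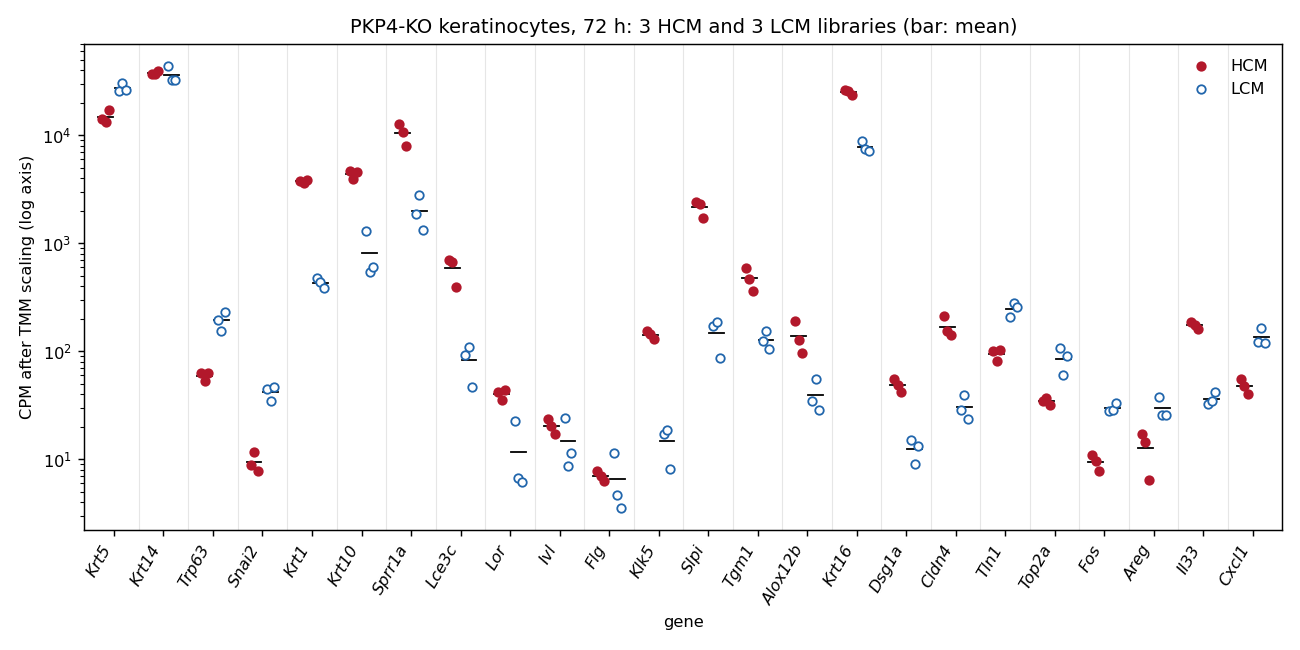
CPM after TMM scaling (log axis) of 24 named genes in each of the 6 PKP4-KO libraries at 72 h, with filled points for HCM, open points for LCM and a bar at each group mean. Krt1, Slpi and Klk5 lie in separate ranges and higher in HCM, Krt14 and Ivl overlap, and Trp63, Snai2 and Tln1 lie lower in HCM.

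Basal keratinocyte genes fell. Of 20 listed genes 19 were tested, 16 fell and none rose, against 19.7% lower and 12.9% higher over all genes, at a median log2 fold change of -0.983 against -0.0775. With offsets for gene length 17 fell, without TMM factors 19, and 13 to 17 fell with any 1 library left out. Trp63, which encodes p63, the transcription factor that maintains stratified epithelium, measured 62.4, 53.2 and 62.3 CPM in HCM and 195, 154 and 232 CPM in LCM. Every LCM library was above every HCM library (log2 fold change -1.71 ± 0.28, adjusted p = 3.41e-05, where ± gives the SE of the fit). Krt5, of the basal keratin pair, measured 14161, 13361 and 17187 CPM in HCM and 25595, 30612 and 26552 CPM in LCM. The ranges do not overlap (log2 fold change -0.89 ± 0.18, adjusted p = 0.000395). Its partner Krt14 measured 37138, 36863 and 39275 CPM in HCM and 43862, 32932 and 32923 CPM in LCM. Those ranges overlap, the test was not passed (log2 fold change 0.046 ± 0.15, adjusted p = 0.835), and the sign turned without TMM factors, without LCM replicate 2 or 3 and with offsets for gene length. Other members that fell were Bnc1 (-1.62), a basal zinc finger factor, Wnt10a (-1.34), a Wnt ligand, Fgfr2 (-1.18), a receptor for fibroblast growth factors, and Col17a1 (-0.74), the hemidesmosomal collagen. The basal keratin Krt15 measured 905, 996 and 1305 CPM in HCM and 2762, 1699 and 1711 CPM in LCM, and its fall (log2 fold change -0.95 ± 0.25, adjusted p = 0.00428) missed the threshold without LCM replicate 1 (adjusted p = 0.0518). In bulk RNA, fewer cells of a type and less RNA per cell cannot be told apart.

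Spinous layer genes rose. Of 22 listed genes 20 were tested, 18 rose and 1 fell, at a median log2 fold change of 2.03. The risers were 18 with offsets for gene length and 16 without TMM factors. Krt1, a keratin of suprabasal cells, measured 3773, 3642 and 3841 CPM in HCM and 476, 435 and 386 CPM in LCM. The HCM libraries lie in a narrow range far above LCM (log2 fold change 3.12 ± 0.50, adjusted p = 2.06e-05). Its partner Krt10 measured 4705, 3986 and 4619.9 CPM in HCM and 1299.7, 542 and 609 CPM in LCM. LCM replicate 1 was the highest of its group and still below every HCM library (log2 fold change 2.44 ± 0.39, adjusted p = 2.46e-05). Sbsn (suprabasin) measured 2823, 2549 and 2243 CPM in HCM and 781, 679 and 419 CPM in LCM. Calml3, a calmodulin-like gene of epithelia, measured 116, 120.2 and 102 CPM in HCM and 16.2, 11.8 and 5.8 CPM in LCM. Neither overlapped between the media, at log2 fold changes of 2.02 and 3.33. Krtdap, a small secreted protein of differentiating keratinocytes, measured 11971, 14637 and 12312 CPM in HCM and 1322, 4997 and 1594 CPM in LCM. LCM replicate 2 lay above its group here, and the call (log2 fold change 2.30 ± 0.72, adjusted p = 0.0154) was lost without LCM replicate 1 (adjusted p = 0.0753) or LCM replicate 3 (0.0788). Lgals7 had the same pattern, with 22191, 32362 and 23216 CPM in HCM and 3350.3, 8635 and 2474 CPM in LCM. Its call (adjusted p = 0.0282) was lost without HCM replicate 2 (0.0728), LCM replicate 1 (0.0985) or LCM replicate 3 (0.122). The member that fell was Ptgs1 (-0.57, adjusted p = 0.0291), a cyclooxygenase gene, a call lost with length offsets, with DESeq2 and without HCM replicate 2 or 3 or LCM replicate 3.

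Genes of the cornified envelope and granular layer rose. Of 61 listed genes 58 were tested, 44 rose and 1 fell, at a median log2 fold change of 1.74. They are short genes (median 788 bp), and with offsets for gene length 33 rose and 1 fell, as many as rose without TMM factors. The small proline-rich proteins, cross-linked bridges of the envelope, rose in 13 of 14 tested genes (median 2.68). Sprr1a measured 12713, 10849 and 7943 CPM in HCM and 1858, 2817 and 1334 CPM in LCM. Sprr2d measured 1128, 840.1 and 496 CPM in HCM and 63.2, 116 and 33.4 CPM in LCM. In both, LCM replicate 2 was the highest LCM library and every HCM library was above it (log2 fold changes 2.39 ± 0.33, adjusted p = 2.99e-06 and 3.54 ± 0.51, adjusted p = 4.97e-06). The late cornified envelope genes rose in 17 of 21 tested members, with a median of 1.2 for the 14 Lce1 genes and 2.44 for the 6 Lce3 genes. Lce3c measured 695, 676 and 392 CPM in HCM and 92.5, 109.5 and 46.4 CPM in LCM. Members of both families are close copies of each other, and how reads shared between copies were assigned was not given in the sources used here, so single members are uncertain.

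The classical markers of the list differed from each other. Lor (loricrin, the main envelope protein) measured 41.9, 35.5 and 43.9 CPM in HCM and 22.4, 6.71 and 6.2 CPM in LCM. All HCM libraries were higher, LCM replicate 1 being the nearest (log2 fold change 1.78 ± 0.37, adjusted p = 0.00045). Ivl (involucrin, an early scaffold) measured 23.4, 20.2 and 17.3 CPM in HCM and 23.9, 8.72 and 11.4 CPM in LCM. The ranges overlap through LCM replicate 1 (log2 fold change 0.46 ± 0.28, adjusted p = 0.201), and without that library the adjusted p was 0.00487. Flg (filaggrin, which bundles keratin) measured 7.88, 6.98 and 6.25 CPM in HCM and 11.5, 4.7 and 3.55 CPM in LCM, also overlapping (log2 fold change 0.093 ± 0.62, adjusted p = 0.93). The cystatin Cst6, a protease inhibitor of the barrier, measured 409.7, 441 and 378 CPM in HCM and 36.4, 72.9 and 30.5 CPM in LCM. The serpin Serpinb12 measured 301, 346 and 301 CPM in HCM and 42.1, 31.4 and 36 CPM in LCM. Both rose in ranges far apart, by 8.81-fold and 8.66-fold. The member that fell was Plin2 (-1.04), a coat protein of lipid droplets.

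Sequences around the start of 4 of these genes are printed to show 2 promoter motifs that some members hold and most lack. They come from RefSeq (build GRCm38.p6, not the GRCm39 build of the counts) and run from 250 bases before to 50 after the start, on the strand of the gene. Capitals mark TGANTCA, the palindromic motif that AP-1 factors are known to bind, and TATAAA, both searched on both strands. Sprr1a lies at chr3:92485832-92486131 (minus strand), Lor at chr3:92083093-92083392 (minus), Ivl at chr3:92573686-92573985 (minus) and Lce3c at chr3:92944236-92944535 (plus), all in the epidermal differentiation complex.
Sprr1a: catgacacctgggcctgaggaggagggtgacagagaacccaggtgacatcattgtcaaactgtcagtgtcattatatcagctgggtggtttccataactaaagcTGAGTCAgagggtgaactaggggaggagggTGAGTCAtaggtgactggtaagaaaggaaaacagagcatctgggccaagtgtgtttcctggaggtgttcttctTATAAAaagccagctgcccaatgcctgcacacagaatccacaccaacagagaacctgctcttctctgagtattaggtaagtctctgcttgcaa
Lor: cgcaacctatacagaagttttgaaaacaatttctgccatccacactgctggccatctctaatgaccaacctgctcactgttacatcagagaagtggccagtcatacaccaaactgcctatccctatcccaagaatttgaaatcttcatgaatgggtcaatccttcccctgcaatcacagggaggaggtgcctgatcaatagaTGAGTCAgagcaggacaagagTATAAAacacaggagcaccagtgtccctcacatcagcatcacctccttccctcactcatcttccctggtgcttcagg
Ivl: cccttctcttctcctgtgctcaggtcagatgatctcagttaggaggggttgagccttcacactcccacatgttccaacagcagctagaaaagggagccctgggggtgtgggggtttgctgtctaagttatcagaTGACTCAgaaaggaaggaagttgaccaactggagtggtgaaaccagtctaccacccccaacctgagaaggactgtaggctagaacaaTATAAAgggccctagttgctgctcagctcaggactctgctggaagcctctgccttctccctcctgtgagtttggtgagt
Lce3c: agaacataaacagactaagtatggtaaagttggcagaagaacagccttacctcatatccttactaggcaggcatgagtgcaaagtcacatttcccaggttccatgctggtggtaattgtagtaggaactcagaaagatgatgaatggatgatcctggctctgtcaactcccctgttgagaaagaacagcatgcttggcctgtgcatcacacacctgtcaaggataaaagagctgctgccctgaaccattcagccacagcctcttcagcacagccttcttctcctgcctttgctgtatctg
TGANTCA begins 146 and 116 bases before the start of Sprr1a, 48 before that of Lor and 116 before that of Ivl, and TATAAA begins 43, 27 and 29 bases before them. Of the 57 protein-coding genes of the list 51 had a promoter in the table, of which 17 (33.3%) held TGANTCA and 20 (39.2%) TATAAA, against 658 (6.65%) and 913 (9.23%) of 9896 tested protein-coding genes. TGANTCA was in 9 of 13 Sprr genes and in 0 of 20 Lce genes, a split made after the values were seen. Ivl, which did not pass the test, holds both motifs, and Lce3c, which rose, holds neither in this window. A match is a description of the letters and does not measure binding.

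Proteases of the surface layers and their inhibitors rose. Kallikreins cut the junctions of dead surface cells, and the inhibitors hold them in check. Of 31 listed genes 23 were tested, 22 rose and none fell, 21 with offsets for gene length, 17 (with 1 lower) without TMM factors and 21 or 22 with any 1 library left out. Klk5, which activates other kallikreins, measured 154, 146 and 129.7 CPM in HCM and 17.3, 18.8 and 8.1 CPM in LCM. Klk7, the chymotrypsin-like member, measured 172, 135 and 114 CPM in HCM and 50.7, 32 and 17.6 CPM in LCM. Both sat in separate ranges (log2 fold changes 3.28 ± 0.35, adjusted p = 4.74e-08 and 2.07 ± 0.30, adjusted p = 5.74e-06). Spink5, the gene of their inhibitor LEKTI, measured 160.2, 156 and 115 CPM in HCM and 67.1, 27.4 and 48.4 CPM in LCM. It rose by less (log2 fold change 1.59 ± 0.43, adjusted p = 0.00499), in ranges that are apart. Slpi, a leukocyte protease inhibitor, measured 2437, 2338 and 1706 CPM in HCM and 173, 187 and 86.4 CPM in LCM. Its log2 fold change of 3.86 was among the 10 highest of all genes eligible to be named. The inhibitors Wfdc5 and Spink12 rose as well (2.94 and 4.07).

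Enzymes that cross-link the envelope and make its lipids rose in 27 of 34 tested genes and fell in 1. The counts were 27 and 1 with offsets for gene length and 17 and 2 without TMM factors. Tgm1, the membrane-bound transglutaminase, measured 592, 471 and 365 CPM in HCM and 124, 154 and 104 CPM in LCM. Alox12b, a lipoxygenase of barrier lipids, measured 189, 128 and 96.4 CPM in HCM and 34.8, 55.7 and 28.4 CPM in LCM. The ranges are apart in both (log2 fold changes 1.90 ± 0.21, adjusted p = 6.33e-08 and 1.80 ± 0.27, adjusted p = 1.00e-05). Abca12, the lipid transporter of lamellar granules, measured 26.8, 20.4 and 14 CPM in HCM and 12.6, 5.37 and 11.8 CPM in LCM. The lowest HCM and the highest LCM value lie close together (log2 fold change 1.02 ± 0.29, adjusted p = 0.00765), and the call was lost without HCM replicate 1 (adjusted p = 0.068). Sptlc3, a subunit of the first enzyme of sphingolipid synthesis, had a log2 fold change of 2.28, Cyp4f39, an omega-hydroxylase of very long fatty acids, 2.05, and Elovl4, which elongates them, 1.59. The member that fell was Aldh3a2 (-0.75, adjusted p = 0.00965), a fatty aldehyde dehydrogenase, a call lost without HCM replicate 1 (0.0936) or LCM replicate 3 (0.0506).

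Keratins of stressed or activated epidermis, already abundant in LCM, rose. All 5 tested genes of the 6 listed were higher, 4 with offsets for gene length and 3 without TMM factors. Krt16 measured 26210.1, 25687 and 23638 CPM in HCM and 8874, 7444 and 7219.8 CPM in LCM. Krt6b measured 37441, 34866 and 31746 CPM in HCM and 9974, 9742 and 7729 CPM in LCM. Both lay far apart between the media (3.21-fold and 3.79-fold). Krt6a rose by less, with 44585, 41725 and 41960.3 CPM in HCM and 21364, 24899 and 22145 CPM in LCM. Krt17 measured 20224, 19631 and 19202 CPM in HCM and 15603, 12558 and 12634 CPM in LCM, did not pass with length offsets (0.15, adjusted p = 0.381) and turned sign without TMM factors. Of 14 tested S100 genes, 5 rose and 1 fell, where 12.9% of all tested genes were higher and 19.7% lower. The counts were the same with offsets for gene length, and 4 rose and 1 fell without TMM factors. The 5 became 8 without LCM replicate 2 and 3 without LCM replicate 1 or 3. S100a9, a chain of the antimicrobial calprotectin, measured 2734, 3127 and 2322 CPM in HCM and 246, 290.3 and 117 CPM in LCM. Its partner S100a8 measured 1467, 1622 and 1178 CPM in HCM and 50.8, 249 and 53.8 CPM in LCM. Both were far higher in every HCM library, and the S100a8 call (log2 fold change 3.59 ± 1.05, adjusted p = 0.00975) was lost without LCM replicate 1 (adjusted p = 0.0504) or LCM replicate 3 (0.0559). The log2 fold change of the beta-defensin gene Defb3 was 4.08 ± 0.86 (adjusted p = 0.000536).

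**Figure D2:**
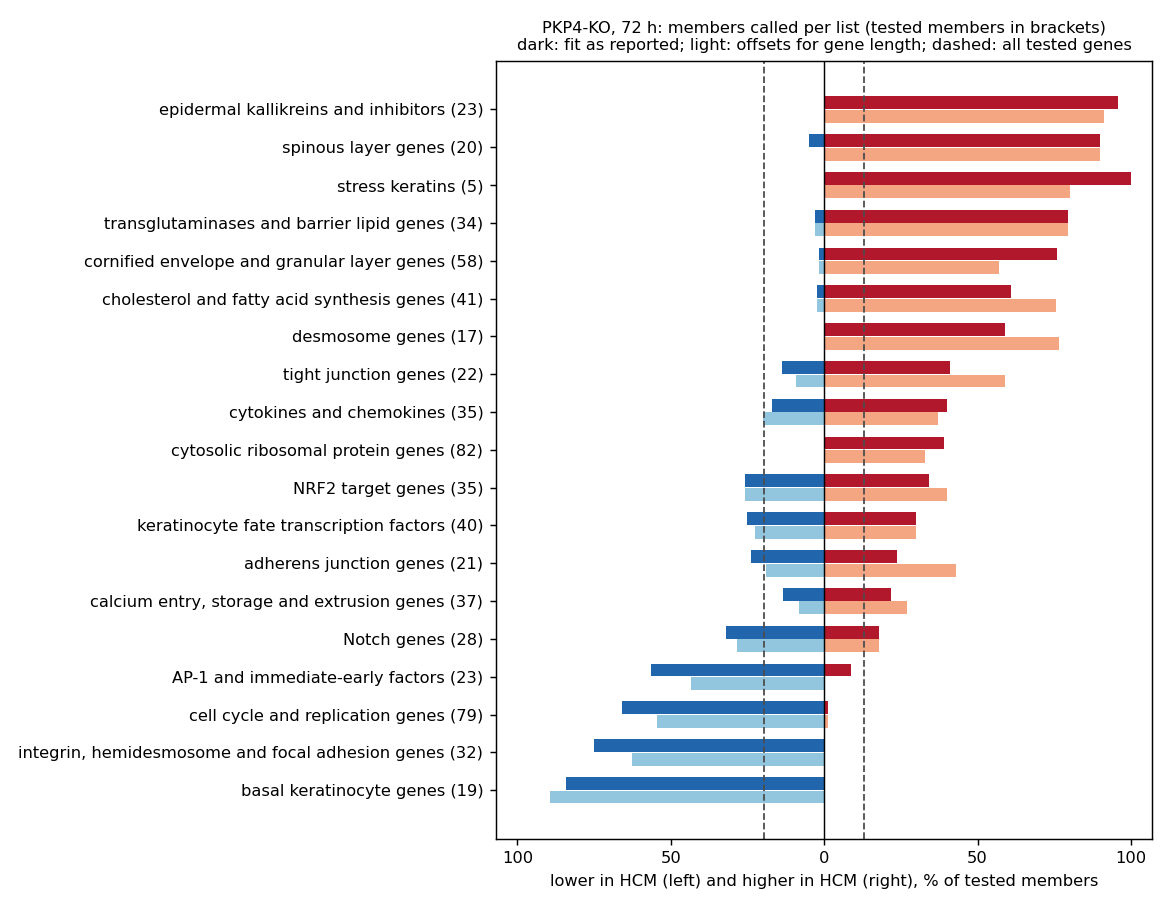
Percent of tested members of 19 gene lists that were higher (right) or lower (left) in HCM than in LCM at an adjusted p under 0.05 in PKP4-KO cells at 72 h, in the fit as reported (dark bars) and with offsets for gene length (light bars). Dashed lines mark the 12.9% higher and 19.7% lower over all tested genes, and the kallikrein, spinous and cornified lists reach far to the right, the basal, integrin and cell cycle lists far to the left.

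Of 17 tested desmosome genes 10 rose and none fell. Desmosomes anchor keratin filaments at cell contacts, and their cadherins change as cells move up. The higher members were 13 with offsets for gene length and 4, with 1 lower, without TMM factors. The count was 6 without HCM replicate 1 and 6 without LCM replicate 3. Dsg1a, a desmoglein of upper layers, measured 55.9, 49 and 41.9 CPM in HCM and 15.2, 8.97 and 13.1 CPM in LCM. Dsc2, a desmocollin, measured 8.64, 7.56 and 5 CPM in HCM and 1.1, 0.755 and 0.7 CPM in LCM. Cdsn (corneodesmosin, the glue of surface desmosomes) measured 579, 421 and 379.5 CPM in HCM and 106, 118 and 73.8 CPM in LCM. All 3 lie in separate ranges (log2 fold changes 1.97 ± 0.38, adjusted p = 0.000207, 3.04 ± 0.45, adjusted p = 8.35e-06 and 2.21 ± 0.20, adjusted p = 5.14e-09). The cadherins of lower layers did not pass the test, with log2 fold changes of 0.43 ± 0.26 (adjusted p = 0.215) for Dsg3 and 0.37 ± 0.38 (adjusted p = 0.469) for Dsc3, nor did Dsp (desmoplakin, the keratin linker) at 0.18 ± 0.31 (adjusted p = 0.682). With offsets for gene length, Dsg3 (0.81, adjusted p = 0.000464) and Dsp (0.62, adjusted p = 0.0124) passed. Jup (plakoglobin) measured 2777, 2266 and 2263 CPM in HCM and 962, 1819 and 1169 CPM in LCM and rose (log2 fold change 0.89 ± 0.20, adjusted p = 0.000912). Pkp1 (0.33, adjusted p = 0.0286) and Pkp3 (0.37, adjusted p = 0.0392), other plakophilins, were slightly higher, calls that were both lost without HCM replicate 1 or LCM replicate 3 and that turned sign without TMM factors.

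Among adherens junction genes, E-cadherin was higher and P-cadherin lower. Cdh1 (E-cadherin) measured 72.8, 64 and 60.1 CPM in HCM and 42.1, 36.3 and 51.9 CPM in LCM. Cdh3 (P-cadherin, of basal cells) measured 31.6, 22.2 and 32.1 CPM in HCM and 46.4, 56.1 and 58.4 CPM in LCM. Neither overlaps (log2 fold changes 0.59 ± 0.18, adjusted p = 0.0124 and -0.90 ± 0.14, adjusted p = 1.85e-05), but the Cdh1 call was lost without HCM replicate 1 (adjusted p = 0.0586) or LCM replicate 2 (0.0588), and its sign turned without TMM factors. Of 21 tested genes 5 rose and 5 fell, against 12.9% higher and 19.7% lower over all tested genes. The counts were 9 and 4 with offsets for gene length and 2 and 9 without TMM factors, and 3 rose without HCM replicate 1 or LCM replicate 2. Nectin4, a nectin adhesion receptor, measured 116, 124 and 111 CPM in HCM and 30.2, 38.5 and 23.9 CPM in LCM. Its ranges are far apart (log2 fold change 1.92 ± 0.24, adjusted p = 7.51e-07). Arvcf, an armadillo protein of the family of PKP4, fell (log2 fold change -1.57 ± 0.17, adjusted p = 6.31e-08), as did Ctnna1 (alpha-catenin, -0.67). Ctnnb1 (beta-catenin) did not pass (-0.47, adjusted p = 0.19).

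Of 22 tested tight junction genes 9 rose and 3 fell, 13 and 2 with offsets for gene length, and 5 and 4 without TMM factors. The shares over all tested genes were 12.9% higher and 19.7% lower, for this list and the gap junction list below. Cldn1, the main barrier claudin of epidermis, measured 21, 19.2 and 18.1 CPM in HCM and 3.72, 4.86 and 4.95 CPM in LCM. Cldn4 measured 211, 154 and 142 CPM in HCM and 28.9, 39.2 and 23.6 CPM in LCM. Cldn23 measured 10.8, 9.74 and 10.9 CPM in HCM and 0.488, 0.671 and 0.5 CPM in LCM. In all 3 the lowest HCM library was well above the highest LCM library (log2 fold changes 2.1 ± 0.20, adjusted p = 1.14e-08, 2.47 ± 0.18, adjusted p = 1.45e-10 and 4.25 ± 0.37, adjusted p = 2.53e-09). Ocln (occludin) had a log2 fold change of 2.01. Of 11 gap junction genes 5 rose and 1 fell, 5 and 0 with offsets for gene length and 3 and 2 without TMM factors, and 3 rose without LCM replicate 1. Gjb2 (connexin 26) measured 399, 384 and 254 CPM in HCM and 88.1, 113 and 84.7 CPM in LCM, in separate ranges. Gja1 (connexin 43) did not pass (-0.13, adjusted p = 0.407).

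Genes of adhesion to the matrix fell. Integrins, laminins and hemidesmosome proteins hold basal cells to the basement membrane, and focal adhesion proteins link them to actin. Of 32 tested genes 24 fell and none rose, with a median of -0.993. With offsets for gene length 20 fell, without TMM factors 28, and 20 to 23 fell with any 1 library left out. Tln1 (talin, which activates integrins) measured 100, 81 and 103 CPM in HCM and 206, 282 and 259.8 CPM in LCM. Pxn (paxillin) measured 47.6, 42.4 and 46.1 CPM in HCM and 96.7, 147 and 125 CPM in LCM. In both, every HCM library was below every LCM library (log2 fold changes -1.40 ± 0.14, adjusted p = 1.39e-08 and -1.44 ± 0.15, adjusted p = 2.87e-08). Itga3, a laminin-binding integrin chain, measured 66.4, 54.8 and 51.7 CPM in HCM and 109, 138 and 125 CPM in LCM. Itgb4, the hemidesmosomal chain, measured 118, 80.4 and 99.3 CPM in HCM and 137, 203 and 181 CPM in LCM. Both fell without overlap (-1.10 and -0.81). The laminin chain genes Lama3 and Lamb3 had log2 fold changes of -1.22 and -1.20. Itga6, the partner of Itgb4, fell (-1.06, adjusted p = 0.0101), a call lost without LCM replicate 3 (0.0618), and Itgb1 just missed the threshold (-0.60, adjusted p = 0.0555), which it passed without LCM replicate 2 (0.0308).

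Actin filaments anchor cell-cell and matrix junctions, and myosin contracts them. Myh9, the heavy chain of non-muscle myosin, fell (-0.94), as did Msn (moesin, a linker of actin to the membrane, -1.60). Of 28 tested actin and SRF target genes 7 rose and 10 fell, against 12.9% higher and 19.7% lower over all tested genes. The counts were 7 and 8 with offsets for gene length and 2 and 17 without TMM factors, and 4 rose without HCM replicate 1. Zyx (zyxin, of focal adhesions) measured 70, 65.4 and 64.8 CPM in HCM and 178, 259 and 194 CPM in LCM and fell (log2 fold change -1.66 ± 0.17, adjusted p = 2.27e-08). Actb measured 5200.0, 5445 and 4366 CPM in HCM and 1739.5, 6952 and 2316 CPM in LCM. LCM replicate 2 lay far above the other LCM libraries, and the test was not passed (0.45, adjusted p = 0.587).

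Cell cycle genes fell. Of 79 tested genes of DNA replication and mitosis 52 fell and 1 rose, with a median of -0.731. With offsets for gene length 43 fell, without TMM factors 74, and 47 to 53 fell with any 1 library left out. Top2a, the topoisomerase of dividing cells, measured 34.8, 36.6 and 31.9 CPM in HCM and 106, 60 and 90.7 CPM in LCM. Mcm3, of the replicative helicase, measured 56.5, 54.4 and 66.5 CPM in HCM and 126, 117 and 144 CPM in LCM. Aurkb, a mitotic kinase, measured 38.2, 39.7 and 47.6 CPM in HCM and 94.9, 101 and 114 CPM in LCM. In each, every HCM library was below every LCM library, with LCM levels 2.49, 2.18 and 2.47 times those in HCM. Ccnb1 (cyclin B1) fell (-0.93), and Mki67 did not pass (-0.94, adjusted p = 0.0933). The member that rose was E2f2 (0.82), an E2F factor. Of 37 tested p53 targets and cell cycle inhibitors 7 rose and 12 fell, against 12.9% higher and 19.7% lower over all tested genes. The counts were 5 and 10 with offsets for gene length and 0 and 23 without TMM factors. With 1 library left out, 4 rose without HCM replicate 3 and 3 without LCM replicate 3. Cdkn1a (p21) measured 1165, 1009.7 and 999.6 CPM in HCM and 460.0, 946 and 523 CPM in LCM. LCM replicate 2 lay near the HCM libraries, and the call (0.72, adjusted p = 0.0399) was lost without HCM replicate 1, 2 or 3 or LCM replicate 1 or 3, at adjusted p of 0.0595 to 0.187. Cdkn1b (p27) and Cdkn1c (p57) fell (-0.70 and -1.62).

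Of 40 tested transcription factors of keratinocyte fate 12 rose and 10 fell, 12 and 9 with offsets for gene length and 4 and 19 without TMM factors. The shares over all tested genes were 12.9% higher and 19.7% lower, for this list and the Notch list below. Hopx, a homeodomain cofactor of differentiating epidermis, measured 285, 325 and 259.8 CPM in HCM and 62.7, 57.7 and 53.7 CPM in LCM. Zfp750, a differentiation factor downstream of p63, measured 134, 100.4 and 105 CPM in HCM and 37.1, 44.7 and 45.6 CPM in LCM. Their ranges are far apart (log2 fold changes 2.32 ± 0.16, adjusted p = 5.32e-11 and 1.41 ± 0.15, adjusted p = 3.74e-08). Elf5 (2.58) and Grhl1 (1.24), epithelial factors, also rose. Snai2 (Slug, a repressor kept in basal cells) measured 8.76, 11.6 and 7.84 CPM in HCM and 45.2, 34.6 and 47.1 CPM in LCM, with no overlap (log2 fold change -2.17 ± 0.21, adjusted p = 1.08e-08), and Ovol2, another epithelial zinc finger factor, fell too (-1.73). Klf4 (0.12, adjusted p = 0.686) and Grhl3 (-0.18, adjusted p = 0.502), known for roles in barrier formation, did not pass. Of 28 tested Notch genes 5 rose and 9 fell, 5 and 8 with offsets for gene length and 2 and 18 without TMM factors. The receptors Notch3 (1.52) and Notch2 (1.34) rose, the ligand Jag2 fell (-1.40), and Notch1 (-0.33, adjusted p = 0.262) and the target Hes1 (-0.58, adjusted p = 0.0911) did not pass. Hes1 passed without LCM replicate 2 (adjusted p = 0.0385) and with length offsets (-0.80, adjusted p = 0.0479).

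Immediate-early genes fell. Of 23 tested AP-1 and immediate-early genes 13 fell and 2 rose, 10 and 0 with offsets for gene length and 17 and 0 without TMM factors. The lower count was 8 without HCM replicate 2 or LCM replicate 1, and none rose without HCM replicate 1, HCM replicate 2, LCM replicate 2 or LCM replicate 3. Fos, an AP-1 subunit, measured 10.9, 9.74 and 7.84 CPM in HCM and 27.9, 28.8 and 33.2 CPM in LCM. Myc measured 86.9, 80.4 and 82.6 CPM in HCM and 164, 166 and 161 CPM in LCM. Dusp6, a phosphatase induced by ERK signalling, measured 17.8, 17.2 and 9.65 CPM in HCM and 49.1, 55.4 and 59.2 CPM in LCM. None of them overlapped between the media (log2 fold changes -1.66 ± 0.28, adjusted p = 3.78e-05, -0.97 ± 0.14, adjusted p = 3.91e-06 and -1.88 ± 0.21, adjusted p = 1.42e-07). The EGF-family ligand Areg (amphiregulin) measured 17, 14.4 and 6.47 CPM in HCM and 37.8, 26 and 25.6 CPM in LCM and fell (log2 fold change -1.24 ± 0.28, adjusted p = 0.000922). Its receptor Egfr was higher (0.56, adjusted p = 0.0247), a call lost without HCM replicate 3 (0.091) or LCM replicate 1 (0.138), with a sign that turned without TMM factors. Of 16 tested EGF receptor and ligand genes 4 rose and 5 fell, against 12.9% higher and 19.7% lower over all tested genes. The counts were 7 and 3 with offsets for gene length and 0 and 7 without TMM factors.

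Cytokine and chemokine genes held a larger higher and a smaller lower group. Of 50 listed genes 35 were tested, 14 rose and 6 fell, against 12.9% higher and 19.7% lower over all tested genes. The counts were 13 and 7 with offsets for gene length and 11 and 11 without TMM factors. Il33, an alarmin, measured 187, 175 and 162 CPM in HCM and 32.7, 34.8 and 42 CPM in LCM. Il18, of the interleukin 1 family, measured 232, 266 and 224 CPM in HCM and 42.8, 48.8 and 42.8 CPM in LCM. Tslp, an epithelial cytokine, measured 173, 177 and 108 CPM in HCM and 14.5, 27.5 and 17.1 CPM in LCM. These 3 rose with no overlap, by 4.79-fold, 5.37-fold and 7.76-fold. The neutrophil chemokine gene Cxcl1 measured 55.1, 48 and 40.3 CPM in HCM and 121, 165 and 119 CPM in LCM and fell (log2 fold change -1.50 ± 0.25, adjusted p = 4.35e-05). Csf3 (G-CSF, -1.32) fell with it, as did Il24 (-0.83, adjusted p = 0.00656), a call lost without HCM replicate 3 (0.0645).

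Sterol synthesis genes were mostly higher. Of 41 tested cholesterol and fatty acid synthesis genes 25 rose and 1 fell (Fads1, a fatty acid desaturase, -1.04), 31 and 1 with offsets for gene length, but 7 rose and 8 fell without TMM factors. Fdft1, which makes squalene, measured 357, 373 and 359 CPM in HCM and 133, 136 and 136 CPM in LCM. Sc5d, a late sterol desaturase, measured 42.9, 41 and 40.2 CPM in HCM and 15.6, 13.3 and 19.2 CPM in LCM. The ranges are apart in both (log2 fold changes 1.43 ± 0.15, adjusted p = 4.25e-08 and 1.36 ± 0.12, adjusted p = 3.68e-09). Of 36 tested glycolysis and hypoxia genes 15 fell and 1 rose, 9 fell with offsets for gene length and 28 without TMM factors. Pkm (pyruvate kinase) had a log2 fold change of -0.63 and Slc2a1 (a glucose transporter) of -0.64. Of 35 tested NRF2 target genes 12 rose and 9 fell, against 12.9% higher and 19.7% lower over all tested genes. The counts were 14 and 9 with offsets for gene length and 5 and 17 without TMM factors. Gclm (-2.14) and Gclc (-1.40), which make glutathione, were lower, and the glutathione transferases Gsta1 (2.1) and Gsta2 (2.77) higher.

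Genes that move calcium into, within and out of the cell were called in both directions. Over all tested genes 12.9% were higher and 19.7% lower, 32.6% in either direction. Of 57 listed genes 37 were tested, 8 rose and 5 fell, 10 and 3 with offsets for gene length, 0 and 21 without TMM factors and 3 and 2 when the 2 groups were fitted alone. Without LCM replicate 1, 4 rose, and 3 fell without HCM replicate 2 or LCM replicate 3. Atp2c2, a Golgi calcium pump, measured 32.5, 22.7 and 22.5 CPM in HCM and 12.3, 14.4 and 11.8 CPM in LCM and rose (log2 fold change 1.01 ± 0.17, adjusted p = 5.43e-05). Plcg1, a phospholipase upstream of calcium release, measured 46, 45.6 and 42.8 CPM in HCM and 74.1, 90.5 and 83.6 CPM in LCM and fell (log2 fold change -0.88 ± 0.11, adjusted p = 6.38e-07). Atp2a2, the pump of the endoplasmic reticulum, did not pass (-0.49, adjusted p = 0.188).

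**Figure D3:**
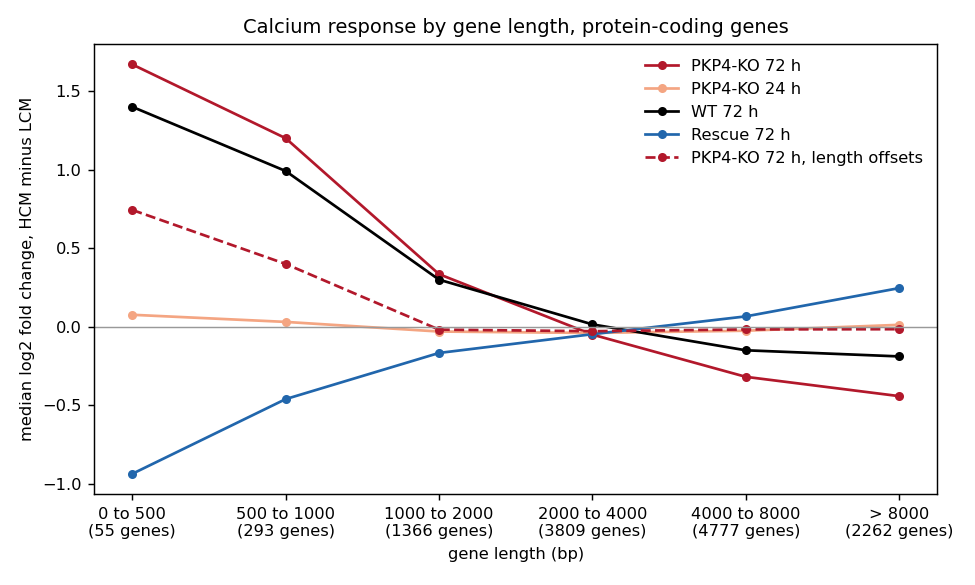
Median log2 fold change, HCM minus LCM, of tested protein-coding genes in 6 bins of gene length for the calcium responses of PKP4-KO at 72 h, PKP4-KO at 24 h, WT at 72 h and Rescue at 72 h, and for PKP4-KO at 72 h after offsets for gene length (dashed line). The medians of PKP4-KO at 72 h run from 1.67 in the shortest to -0.443 in the longest genes, those of WT run the same way, and those of Rescue the opposite way.

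Fold change moved with gene length across the whole table. The 55 protein-coding genes of up to 500 bp had a median log2 fold change of 1.67, the 293 genes of 500 to 1000 bp 1.2, and the 2262 genes of over 8000 bp -0.443. The medians of the shortest and longest genes were 1.4 and -0.19 in WT at 72 h, 0.0752 and 0.0111 in PKP4-KO at 24 h, and -0.938 and 0.245 in Rescue at 72 h. With offsets those of PKP4-KO at 72 h were 0.743 and -0.0167. In Rescue LCM at 72 h, the slope per doubling of gene length was -0.204 in replicate 2. It was 0.244 and 0.0757 in Rescue LCM replicates 1 and 3, and 0.131 to 0.174 in Rescue HCM. At 72 h, WT HCM replicate 3 had -0.368, WT HCM replicates 1 and 2 -0.0571 and -0.00974, and WT LCM 0.0368 to 0.198. The part of these single libraries in the WT and Rescue trends was not tested. Ribosomal protein genes and histone genes are short or highly counted, and how many of them were called depended on the setting. The shares over all tested genes were 12.9% higher and 19.7% lower. Of 82 tested ribosomal protein genes 32 rose and none fell, 27 with offsets, 1 (with 3 lower) without TMM factors, 54 without LCM replicate 2, 13 without HCM replicate 2 and 7 without LCM replicate 3. Of 59 tested replication-dependent histone genes 12 rose and none fell, 1 rose and 1 fell with offsets, and 6 rose without LCM replicate 3. Most messages of such histones carry no poly(A) tail, so poly(A) libraries measure them in part.

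The genes with the highest and lowest fold changes were named by a fixed rule from 1425 higher and 2327 lower protein-coding genes with at least 5 CPM in 1 group and no overlap between groups. Serpinb7, a serpin of the epidermis, had the highest, with 9.53, 13.5 and 10.8 CPM in HCM and 0.427, 0.335 and 0.3 CPM in LCM. The LCM values are near the floor of the assay (log2 fold change 4.97 ± 0.58, adjusted p = 1.92e-07). Akr1c18, a steroid dehydrogenase, measured 169, 193 and 174 CPM in HCM and 8.6, 8.89 and 9.9 CPM in LCM. Cyp2b10, a cytochrome P450, measured 24.9, 30.1 and 17.6 CPM in HCM and 1.95, 1.43 and 0.9 CPM in LCM. Both lie in separate ranges (4.29 and 4.09), and Kcnip3, a calcium-binding regulator of potassium channels, rose as well (3.81). The log2 fold change of Defb14, a beta-defensin gene, was 4.11 ± 1.23 (adjusted p = 0.0114), a call lost without LCM replicate 1 (adjusted p = 0.0522) or LCM replicate 3 (0.062). At the other end, Rab6b, a Golgi trafficking GTPase, measured 0.508, 0.436 and 0.454 CPM in HCM and 5.36, 5.45 and 5.75 CPM in LCM. Arhgef3, a guanine nucleotide exchange factor, measured 3.68, 2.33 and 1.02 CPM in HCM and 23.9, 17.3 and 19 CPM in LCM. Gli3, an effector of Hedgehog signalling, measured 1.14, 0.436 and 0.681 CPM in HCM and 5.73, 3.61 and 5.8 CPM in LCM. These 3 fell without overlap (log2 fold changes -3.55 ± 0.69, adjusted p = 0.000255, -3.11 ± 0.35, adjusted p = 1.03e-07 and -2.73 ± 0.38, adjusted p = 2.69e-06). A floor of 3 counts is 0.381, 0.436 and 0.341 CPM in HCM replicates 1, 2 and 3. The HCM values of Rab6b and that of Gli3 in HCM replicate 2 are near it, so the sizes of these falls are uncertain. The others that fell most were Irf2bpl (-2.64), Neurl1b (-2.58), Trib2 (-2.54), Nuak1 (-2.49), Phldb1 (-2.49), Fam110c (-2.48) and Padi3 (-2.47).

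At 24 h, PKP4-KO cells had 428 genes called between HCM and LCM (2.83%), 736 with DESeq2, but 8 when the 2 groups were fitted alone. The response at 72 h differed from that at 24 h in 1667 genes (11.0%), 672 with a higher log2 fold change at 72 h (4.45%) and 995 with a lower one (6.58%). These shares were 5.66% and 5.35% with offsets for gene length. The number was 741 when the 4 groups were fitted alone and 1003 without LCM replicate 3. In the cornified list 23 of 58 genes had a higher response at 72 h and none a lower one, in the lipid list 21 of 34 and none, and in the kallikrein list 13 of 23 and none. Cnfn (cornifelin) had a log2 response of -0.89 at 24 h and 2.56 at 72 h (difference 3.45 ± 0.71, adjusted p = 0.00211). Slpi had -0.26 and 3.86 (difference 4.12 ± 0.46, adjusted p = 4.54e-06). Serpinb7 had 0.11 and 4.97 (difference 4.86 ± 1.01, adjusted p = 0.00234). Of the basal list 11 of 19 had a lower response at 72 h and none a higher one. Krt1 (2.21), Dsg1a (2.95) and Il33 (2.73) were called as higher in HCM at 24 h already, and their differences between the times did not pass the test.

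**Figure D4:**
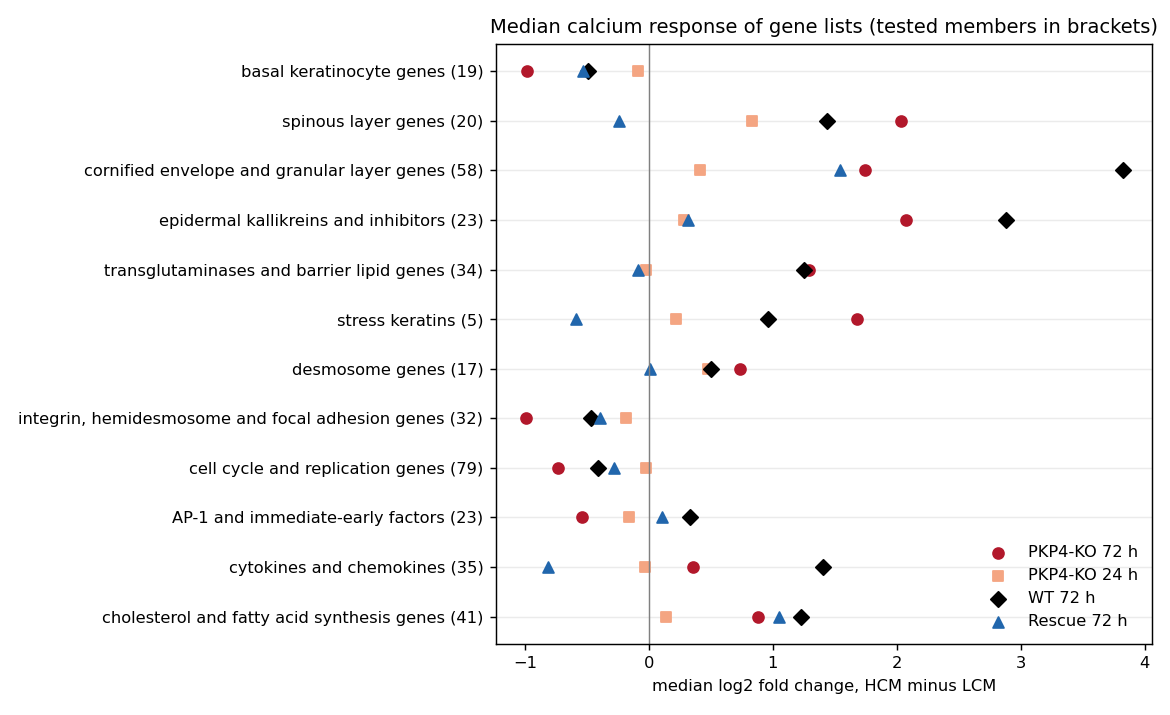
Median log2 calcium response (HCM minus LCM) of 12 gene lists in PKP4-KO at 72 h, PKP4-KO at 24 h, WT at 72 h and Rescue at 72 h. The cornified list has a median of 1.74 in PKP4-KO and 3.82 in WT at 72 h, and the basal list -0.983 and -0.493. Of the 19 tested basal genes, 3 had a lower and 1 a higher response in PKP4-KO than in WT by the test of the difference.

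WT cells at 72 h had 3232 calls (21.4%), 10.6% of the tested genes higher and 10.8% lower in HCM, and the response of PKP4-KO differed from that of WT in 867 genes (5.74%), 280 higher (1.85%) and 587 lower (3.88%) in PKP4-KO. The number was 1026 (6.79%) with offsets for gene length, 2.59% of the tested genes higher and 4.19% lower, and 426 when the 4 groups were fitted alone. Of the 58 cornified genes 24 responded less in PKP4-KO and 3 more, 33 and 3 with length offsets. The Lce1 genes made up 13 of the lower ones, of 14 tested. Their median log2 response was 1.2 in PKP4-KO and 4.6 in WT. The Sprr genes had medians of 2.68 and 3.32, and 1 of 14 differed. Lor responded by 1.78 in PKP4-KO and 4.06 in WT (difference -2.28 ± 0.51, adjusted p = 0.00505), a call lost when the 4 groups were fitted alone. Ivl responded by 0.46 and 2.38 (difference -1.92 ± 0.38, adjusted p = 0.00189). Of the kallikrein list 6 of 23 responded less in PKP4-KO and none more. Klk6 responded by 3.21 and 5.88 (difference -2.67 ± 0.66, adjusted p = 0.0122). Tgm1 responded more in PKP4-KO than in WT, by 1.90 and 0.33 (difference 1.57 ± 0.28, adjusted p = 0.000601).

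Several genes had responses of opposite sign in PKP4-KO and WT. Il33 rose in PKP4-KO and fell in WT (2.26 and -0.95, difference 3.21 ± 0.32, adjusted p = 1.38e-07). Tgm3, the transglutaminase of late layers, was higher in PKP4-KO (0.60) and fell in WT (-2.0, difference 2.59 ± 0.27, adjusted p = 2.57e-07). The PKP4-KO call of Tgm3 was lost without HCM replicate 1 (adjusted p = 0.0777) or LCM replicate 3 (0.0595), and its sign turned without TMM factors. Areg fell in PKP4-KO and rose in WT (-1.24 and 2.08, difference -3.32 ± 0.41, adjusted p = 5.05e-06). Dusp6 did the same (-1.88 and 1.99, difference -3.87 ± 0.31, adjusted p = 2.97e-09), and so did Cxcl1 (-1.50 and 1.94, difference -3.44 ± 0.36, adjusted p = 3.25e-07). Cyp2b10 rose in PKP4-KO, and its WT response was -0.81 (adjusted p = 0.159, difference 4.90 ± 0.53, adjusted p = 5.65e-07). Of the AP-1 and immediate-early list 11 of 23 responded less in PKP4-KO than in WT and none more, 12 and 0 with length offsets. Of the 35 cytokine genes 12 responded less and 2 more.

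Rescue cells at 72 h had 3769 calls (24.9%), 13% of the tested genes higher and 12% lower in HCM, and the response of PKP4-KO differed from theirs in 4765 genes (31.5%), 2031 higher (13.4%) and 2734 lower (18.1%) in PKP4-KO. This split was 2249 and 2191 with offsets for gene length, 2784 and 2595 with DESeq2 and 634 and 6719 without TMM factors. The comparisons of PKP4-KO at 72 h with 24 h, WT and Rescue share the same 6 libraries, so they are not independent of each other. In the lipid list 21 of 34 genes responded more in PKP4-KO than in Rescue and 1 less. Tgm1 responded by 1.90 in PKP4-KO and -2.37 in Rescue (difference 4.27 ± 0.29, adjusted p = 5.41e-11). Alox12b responded by 1.80 and -2.63 (difference 4.44 ± 0.39, adjusted p = 2.94e-09), with 1.70 in WT. Both genes fell in HCM in Rescue cells. Krt10 responded by 2.44 in PKP4-KO and 5.06 in Rescue (difference -2.62 ± 0.54, adjusted p = 0.000642), with 3.98 in WT. Areg had a log2 response of -3.63 and Cxcl1 of -2.84 in Rescue, negative as in PKP4-KO. Of the 14 Lce1 genes 13 responded less in PKP4-KO than in Rescue, where their median was 4.46.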

How the data were processed

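Per the labels and the study's methods, the authors sequenced poly(A) RNA from each library as strand-specific read pairs, aligned it with HISAT2 2.1.0 to the mouse genome GRCm39 plus a GFP-PKP4 sequence, and removed secondary alignments with SAMtools 1.10. The authors deposited whole-number counts per gene (featureCounts 2.0.0), without normalization. The strand setting and the treatment of reads shared by several genes were not given in the sources used here, so counts of overlapping, antisense and near-identical genes are uncertain.

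All 36 libraries, in 12 groups of 3 taken from the labels, were fitted in 1 model with edgeR 4.0.16 (R 4.3.3), with TMM factors and the quasi-likelihood test (24 residual degrees of freedom). Of 55358 genes, filterByExpr kept 15114. The Benjamini-Hochberg adjustment ran over all of these, and an adjusted p under 0.05 was called. Differences of responses were contrasts of the same fit, and Pkp4 levels were compared by exact permutation tests. Gene lengths came from the deposited table, and 98.9% of genes were matched to the annotation by identifier. The edgeR fit was tested on simulated counts with 194 changed genes, without a length trend or a shift in composition such as these libraries show. It recovered 43.3% of changes of 1 and 78.4% of changes of 2 on the log2 scale. Of its 124 calls 6 were false.

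Alternatives were no TMM factors, TMM factors without the 100 most counted genes, upper-quartile factors, DESeq2 1.42.0, no filter, at least 10 counts in every library compared, only the groups compared, the replicate number as a block, and each of the 6 libraries left out. Offsets for gene length (a spline with 4 degrees of freedom per library) and the list counts under each alternative were added after the data were seen.

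The libraries, gene lists and rules were chosen with earlier results of these data known. The text names members of the lists, the most counted genes of each group, and the 10 highest and 10 lowest log2 fold changes among protein-coding genes that were called, reached 5 CPM in the higher group and did not overlap. It also names the 5 highest and 5 lowest of each of the 3 differences of responses, among protein-coding genes called in both the difference and the 72 h response that reached 5 CPM in 1 of the 4 groups. The results of some listed genes and of 1 list are not reported here. Figures were drawn with Python 3.11.15 and matplotlib 3.10.9.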

Additional observations from a re-analysis of the deposited data

Results flagged for a closer look

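The calcium response of PKP4-KO at 72 h differed from another response by a test of the difference itself (edgeR quasi-likelihood test, adjusted over all tested genes) for 1667 genes against 24 h, 867 against WT and 4765 against Rescue. The genes below were taken for the size of their difference, and the 3 comparisons share the same 6 libraries.

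Against 24 h, the highest log2 differences were those of Serpinb7 (4.86), Slpi (4.12), the water channel gene Aqp5 (3.95), Krt75 (3.87) and Tcf23 (3.85). The lowest were those of Rab6b (-2.88), Gli3 (-2.76), Zc3h12c (-2.54), Neurl1b (-2.50) and the DNA glycosylase gene Neil3 (-2.44). The call of Rab6b was lost without any 1 of the HCM libraries, without LCM replicate 3 and with offsets for gene length, and that of Zc3h12c without HCM replicate 2 or LCM replicate 3.

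Against WT, the highest were those of Cyp2b10 (4.90), Mndal (3.21), Il33 (3.21), the inflammasome adaptor gene Pycard (3.19) and Stmn2 (2.94). The lowest were those of Gm9732 (-4.87), Rab6b (-4.78), Gpsm1 (-4.29) and the late cornified envelope genes Lce1k (-4.22) and Lce1j (-4.21). Lce1j measured 2.67, 2.62 and 2.27 CPM in HCM and 1.22, 0.503 and 0.55 CPM in LCM in PKP4-KO, so its response rests on few counts. The call of Mndal was lost when the 4 groups were fitted alone.

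Against Rescue, the highest were those of Lst1 (7.12), Cphx1 (6.82), the metallothionein gene Mt4 (6.41), Pycard (6.12) and the natriuretic peptide gene Nppb (5.66). The lowest were those of Rnf128 (-8.39), Gpsm1 (-5.00), Abhd12b (-4.87), Gpnmb (-4.73) and Nudt16 (-4.49). Rnf128 had no read in any PKP4-KO HCM library at 72 h, so its fitted value depends on the prior count and is no bound. Pycard measured 17.9, 21.8 and 17.7 CPM in HCM and 1.89, 3.02 and 2.05 CPM in LCM in PKP4-KO. Its HCM libraries lay above all LCM libraries. Gpnmb measured 13.5, 12.4 and 11.4 CPM in HCM and 46.2, 62.2 and 39.9 CPM in LCM, with all HCM libraries below LCM.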

How the results depend on the processing

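The count of genes called between HCM and LCM in PKP4-KO at 72 h was 4924 and ran from 3458 (without LCM replicate 3) to 5433 (without LCM replicate 2) with 1 library left out. Without TMM factors it was 7929. That setting also moved the differences of responses, to 5387 genes against 24 h, 1304 against WT and 7353 against Rescue, and the 24 h response of PKP4-KO to 237. Without the low-count filter the difference was 1100 genes against 24 h and 503 against WT, and 227 genes were called at 24 h, with more genes tested. With only the groups compared in the fit, and so fewer libraries, the counts were 741 against 24 h, 426 against WT, 8 for PKP4-KO at 24 h and 2434 for Rescue at 72 h. DESeq2 called 736 genes at 24 h. With 1 PKP4-KO library of 72 h left out, the difference was 1003 (without LCM replicate 3) to 2164 genes against 24 h. It was 681 to 892 against WT and 3539 to 5804 against Rescue. No library of PKP4-KO at 24 h, of WT or of Rescue was left out. The part of single libraries of those groups in the differences was therefore not tested. Among them, WT HCM replicate 3 and Rescue LCM replicate 2 at 72 h stood apart from their groups in the slope with gene length (-0.368 and -0.204).

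Of 194 gene results named in the text 145 kept their direction and their side of the threshold under every setting, and 18 turned sign under at least 1. Without TMM factors the log2 fold changes were -0.172 for Actb, -0.118 for Cdh1, -0.347 for Dsc3, -0.276 for Dsg3, -0.532 for Dsp, -0.122 for Egfr, -0.591 for Flg, -0.243 for Ivl, -0.58 for Klf4, -0.643 for Krt14, -0.343 for Krt84, -0.122 for Tubb3, -0.158 for Krt17, -0.351 for Pkp1, -0.326 for Pkp3 and -0.0919 for Tgm3. With offsets for gene length they were 0.289 for Gja1, -0.253 for Krt14 and 0.0986 for Notch1. With 1 library left out, values ran from -0.0205 to 0.307 for Dsp, -0.21 to 0.773 for Flg, -0.0119 to 0.217 for Klf4 and -0.0242 to 0.198 for Krt14. The cause of these changes was not tested.

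Whether the replicate numbers pair the samples cannot be told. The deviations of same-numbered HCM and LCM libraries correlated by 0.0181, 0.189 and 0.226 for replicates 1, 2 and 3. Those of differently numbered libraries correlated by -0.223 to 0.0405. With the replicate number as a block 4515 genes were called, and 1422, 761 and 4208 for the differences against 24 h, WT and Rescue. LCM replicate 1 correlated best with HCM replicate 3 (0.0405). The block left 367 calls for PKP4-KO at 24 h, 2942 for WT and 3413 for Rescue, and it ended the calls of Cdkn1a at 72 h and of Rab6b against 24 h. The level of Pkp4 in HCM was 64.2% of that in LCM, and 39.7% without TMM factors. Changes of Lce1j and Lce1k rest on few counts, as do the HCM values of Rab6b in PKP4-KO at 72 h.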

Other observations

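Heat shock genes were lower in HCM for 11 of 21 tested members and higher for 1, with a median log2 fold change of -0.504, against 19.7% lower and 12.9% higher over all tested genes. The lower members were 7 with offsets for gene length, 7 without HCM replicate 1, 5 without LCM replicate 1 and 16 without TMM factors. Hspa4l, a chaperone gene of the Hsp110 group, measured 3.94, 3.34 and 4.2 CPM in HCM and 23.3, 7.8 and 13.2 CPM in LCM (log2 fold change -1.95 ± 0.43, adjusted p = 0.000997). The small heat shock protein gene Cryab was the member that was higher, at 72.4, 65.9 and 49.2 CPM in HCM and 4.15, 7.55 and 3.85 CPM in LCM (log2 fold change 3.61 ± 0.33, adjusted p = 4.39e-09). In Rescue at 72 h 9 members were higher in HCM and none was lower, against 13% higher and 12% lower over all tested genes. The difference between the PKP4-KO and Rescue responses passed the test for 15 members, 14 of them lower in PKP4-KO.

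For the lists that follow, the shares over all tested genes in PKP4-KO at 72 h were 12.9% higher and 19.7% lower, 32.6% in either direction. Genes of the integrated and ER stress responses were higher for 10 of 37 tested members and lower for 3. Without HCM replicate 1, 6 were higher, and without TMM factors 1 was higher and 15 were lower. YAP/TAZ pathway genes and targets were higher for 3 of 31 and lower for 10, and with offsets for gene length 6 were higher and 5 lower. Without TMM factors 1 was higher and 20 were lower. Without HCM replicate 1 or LCM replicate 3, 6 were lower. Of 9 simple-epithelium keratins 3 were higher and none lower, while 8 were higher in WT (10.6% of all tested genes), and the difference between these responses passed the test for 4, all lower in PKP4-KO. Lysosome, autophagy and cell death genes were higher for 13 of 43 and lower for 7, with 8 higher without LCM replicate 3 and 24 lower without TMM factors.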
